A study of Mus musculus with 2 samples.

Results

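Peaks of 1000 bp or more are the long stretches of the genome over which an N4-acetylcytidine (ac4C) pull-down of RNA from mouse uterus stood above background. These peaks have their width in genome coordinates, and exons were not used, so the RNA under them may be shorter. They were chosen by width alone, taken as the end minus the start of each peak in the authors' list, and 1165 of 21192 peaks met that limit, which is 5.5% of the list. Whole uterus was taken from wild-type mice, with no strain or age given here, at gestational day 4, and its polyA RNA gave an ac4C immunoprecipitation library and an input control library, 1 of each. There were no replicates, so no value here has a replicate check, no p-values were calculated, and every value describes these libraries. Width, depth, fold enrichment and gene all come from the same peak call, so they describe the chosen peaks and do not test them.

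N4-acetylcytidine is cytidine with an acetyl group on the base's amino group, and in mammals the acetyltransferase NAT10 places it on ribosomal RNA, on transfer RNA together with THUMPD1, and on messenger RNA. In acRIP-seq, RNA fragments are pulled down with an antibody against ac4C and sequenced, and a peak marks where they pile up. A pile-up does not show which cytidine carries the mark, and a long peak can hold 1 modified stretch or several. On gestational day 4 the mouse uterus becomes receptive to the blastocyst. Progesterone acts through its receptor at this time, and Indian hedgehog carries the signal from the epithelium to the stroma.

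Sequence inside the wide peaks could be read where a peak reached a gene's start, since the table used here holds the bases around each start. The letters shown are the RefSeq reference of GRCm38.p6 on the gene's strand, read 5′ to 3′, with U written as T. Capitals mark the repeat searched for, 4 CNN units in a row (each a C followed by any 2 bases, overlaps allowed), a pattern that has been linked to ac4C in mRNA. The first set shows 30 bases from among the first 50 of genes in which the repeat was found, chosen to span starts from transcription factors to signalling genes.
Ihh, chr1:74951627-74951656, minus strand: ctgcgccgcagaCGGCAGCAGCTCCCGCTC
Maz, chr7:127026450-127026479, minus strand: cgcgcggcccgtgcCCCCGGCTCCCGCTGa
Klf13, chr7:63938872-63938901, minus strand: cgcgcacggaggctgtccCGCCTGCCACAA
Fbxw7, chr3:84815577-84815606, plus strand: gagcgagcggggCCGCCACCGCCGCCTCTA
Tsc22d1, chr14:76414962-76414991, plus strand: CGTCGGCTGCAGCCGCTGCACCAGCCCCGT
Cmip, chr8:117257038-117257067, plus strand: ggCCCCGCCGGCCCggccCCACGCCAGCCG
Slmap, chr14:26534590-26534619, minus strand: aaagtttcCTGCCTCGTCCGCCACCGCCTG
Ppp1r9b, chr11:94991230-94991259, plus strand: ggtccCAGCAGCTCCAGCCAGCCTCCGCTT

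The second set shows the first 30 bases of genes whose wide peak also held all of their first 50 bases, in which these letters were not found. In the bases before these starts that lay inside the peak, Arid1a held 22 overlapping matches, Foxl2 4, Hoxa10 1, and Ephb4 and Cldn3 0.
Hoxa10, chr6:52234910-52234939, minus strand: aagaaatgtcagccagaaagggctatctgc
Foxl2, chr9:98955607-98955636, plus strand: caccaggagagcacagcctccgggctgccc
Arid1a, chr4:133753956-133753985, minus strand: agcagaaagcggagagtcacagcggggcca
Ephb4, chr5:137350109-137350138, plus strand: agtctcgactcggcccagccctggcccagc
Cldn3, chr5:134986214-134986243, plus strand: agtctcagaagccagtctccaaagccacag

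In 4 of these genes the start used is an internal one, downstream of the 5′ end of the gene's span: by 587 bp in Fbxw7, 709 bp in Maz, 2784 bp in Arid1a and 5915 bp in Hoxa10. Some peaks also ran upstream of a start at the very 5′ end of the span. The 2 promoter stretches below lay inside the wide peaks of Cmip, a signalling adaptor gene, and of Ihh, the Indian hedgehog ligand. In Cmip the 250 bases before the start held 23 overlapping matches of the repeat, and in Ihh the 99 bases before the start held 0.
Cmip, chr8:117256769-117257018, plus strand: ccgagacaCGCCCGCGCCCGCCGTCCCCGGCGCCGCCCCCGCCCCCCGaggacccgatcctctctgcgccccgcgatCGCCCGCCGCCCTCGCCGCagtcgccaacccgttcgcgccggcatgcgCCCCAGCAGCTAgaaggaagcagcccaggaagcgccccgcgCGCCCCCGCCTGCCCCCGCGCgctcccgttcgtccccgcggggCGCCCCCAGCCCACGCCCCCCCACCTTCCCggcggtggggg
Ihh, chr1:74951673-74951771, minus strand: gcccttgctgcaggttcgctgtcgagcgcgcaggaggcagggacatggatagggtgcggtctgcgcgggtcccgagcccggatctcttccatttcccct

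Wide peaks held all of the first 50 bases at 57 annotated starts of 56 genes. The repeat was present on the gene strand at 30 of these starts, 52.6% (95% Wilson interval 39.9 to 65.0%). It was present at 29.3% (24.9 to 34.2%) of the 358 starts inside narrower peaks and at 21.1% of all 32817 starts in the table. Read on the reverse strand, the repeat stood at 28.1% of the starts in wide peaks, 40.8% of those in narrower peaks and 29.0% of all starts. Starts in wide peaks were rich in G and C, with a median of 66% against 64% in narrower peaks and 56% outside peaks. In the same order, the median of C alone was 32%, 30% and 26%, and that of G alone 32%, 34% and 30%. The repeat needs C on the gene strand, and the GC classes that follow do not match starts by C alone. Among starts with 70% to under 80% GC, the repeat was present in 13 of 19 in wide peaks, 33 of 86 in narrower peaks and 39.9% of 4259 outside peaks. Among those with 60% to under 70% GC, the counts were 9 of 19 in wide peaks and 39 of 127 in narrower peaks. The intervals cover counting error only, and the match marks letters and not a modified base. Of the 57 starts, 34 belonged to 33 named protein-coding genes outside chromosome 18, and 20 of these 34 held the repeat.

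Together the wide peaks covered 1788 of the 9028 kb under all peaks, 19.8%. The median wide peak measured 1312 bp, with the central 50% between 1123 and 1695 bp, and the widest measured 6307 bp. Most lay near the limit, with 505 of 1000 to under 1250 bp and 258 of 1250 to under 1500 bp. A further 208 measured 1500 to under 2000 bp and 157 measured 2000 to under 3000 bp. Only 23 measured 3000 to under 4000 bp, and 14 were wider still. The folds of the peaks just inside and just outside the limit overlapped. Tubb2a, Npr1 and Tpbgl, each at 1000 bp, and Pura and Gnas, each at 1001 bp, had fold enrichments from 3.79 to 10.6. Irs2, Stab1, Slc35a4, Lasp1 and Hipk1, each at 999 bp, had fold enrichments from 2.85 to 7.997.

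The wide peaks were the deeper ones of the list. The fragments stacked at the summit had a median of 45 (range 8 to 390) in wide peaks and 21 in narrower peaks. Background at the summit, in the same fragments, had a median of 4.26 in wide peaks and 2.63 in narrower ones. The authors' fold enrichment, signal over background at the summit, had a median of 8.15 (interquartile range 5.92 to 11.5) against 5.50. It ranged from 2.02 to 37.6. A median wide peak carried a −log10 q of 25.2, against 8.66. With these fragment numbers, the 95% Poisson interval of a wide peak's fold enrichment ran, at the median, from 73.5% to 133% of its value.

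Width and depth moved together. Of the 2348 peaks with fewer than 10 fragments at the summit, 1 was wide (0.0426%). The share was 1.09% at 10 to 19 fragments, 3.77% at 20 to 29, 9.10% at 30 to 49 and 17.8% at 50 to 99. Among the 332 peaks with 100 fragments or more it reached 33.7% (28.9 to 39.0%). By fold enrichment the share went from 2.14% below 4-fold to 25.4% at 20-fold or more. It fell with the length of the gene, from 11.7% of peaks in genes shorter than 5 kb to 3.57% in genes of 200 kb or more. The part of depth in the gene lists below was not tested.

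**Figure D1:**
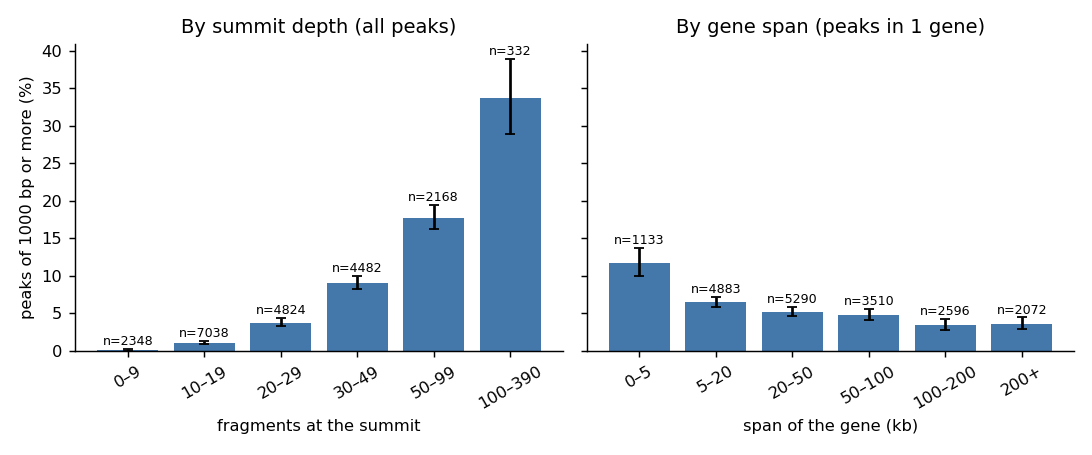
Percentage of peaks that were 1000 bp or wider (vertical axis), by fragments at the summit for all peaks and by gene span in kb for peaks in 1 protein-coding gene. Bars are shares, error bars 95% Wilson intervals and n the number of peaks; the share goes from 0.0426% to 33.7% with depth and from 11.7% to 3.57% with gene span.

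The summit sat almost anywhere inside a wide peak. Its offset from the lower coordinate had a median of 674 bp, 47.8% of the peak's width, with an interquartile range of 27.0 to 71.4%. The 836 wide peaks in genes of known strand had 30.6% of their summits in the 5′ part of the peak, 40.0% in the middle part and 29.4% in the 3′ part, when each peak is cut into 3 equal parts. Narrower peaks had 60.1% in the middle part. Among the 9 peaks of at least 5000 bp the offset ran from 629 bp in Rai1 to 3651 bp in Mbd6. The highest point of a wide peak was thus often far from its centre, also in the widest ones.

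**Figure D2:**
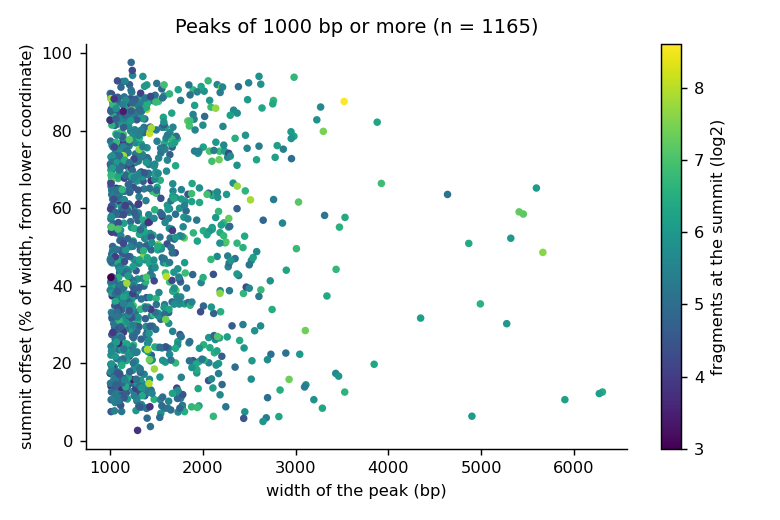
Summit offset as a percentage of peak width, from the lower coordinate (vertical axis), against peak width in bp (horizontal axis) for the 1165 wide peaks. Each point is a peak, coloured by log2 of its summit fragments; offsets spread from 2.74% to 97.7%.

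Wide peaks lay in genes about as often as narrower ones. The summit fell in the span of a protein-coding gene in 1082 of 1165 (92.9%), against 93.9% of narrower peaks. Of these, 1059 fell in exactly 1 such gene and 23 in 2 or more. The other 83 comprised 55 in no gene of the RefSeq table used, 11 in genes of long non-coding RNAs, 14 in pseudogenes and 3 elsewhere. The share of peaks that were wide ranged, over the autosomes and chromosome X, from 3.92% on chromosome 6 to 7.04% on chromosome 10.

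Along the gene, wide peaks gathered toward the 3′ end. With the span of the gene, introns included, cut into 5 equal parts from the 5′ end, 13.2% of summits lay in the first, 9.93% in the second, 11.1% in the third, 18.2% in the fourth and 47.6% (44.2 to 51.0%) in the last. Narrower peaks had 38.4% (37.6 to 39.2%) in the last of these 5 parts. Few wide peaks crossed an annotated end of their gene: 19 of 836 covered the start (2.27%, against 0.634% of narrower peaks) and 11 the end (1.32%, against 0.109%). A wider interval meets a given base more often. Genes whose start was covered included Ihh, Klf13, Ephb4, Tsc22d1, Fbxw7, Foxl2, Rhob, Ski and Cldn3. Of the 11 genes whose end was covered, 8 were predicted genes named only by a Gm number, and the others were Ubald1, Lrch4 and Gna12. Exons were not used here, so whether a summit lay in coding or untranslated sequence was not analysed.

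**Figure D3:**
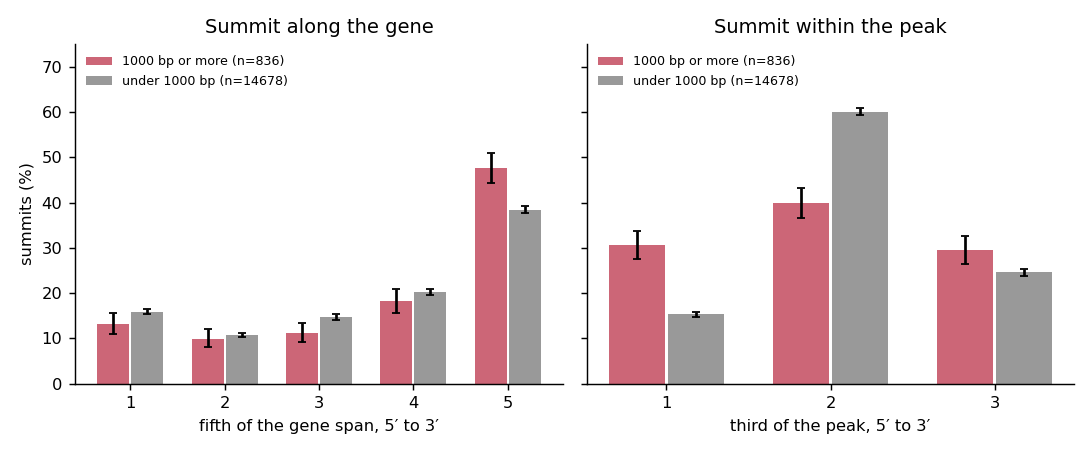
Percentage of summits (vertical axis) in each of 5 equal parts of the gene span and in each of 3 equal parts of the peak, both 5′ to 3′, for 836 wide and 14678 narrower peaks in 1 protein-coding gene of known strand. Bars are shares and error bars 95% Wilson intervals; wide peaks have 47.6% in the last part of the gene and 40.0% in the middle part of the peak.

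The 10 widest peaks in a single protein-coding gene lay mainly in genes of nuclear proteins. The widest, 6307 bp, was in Plec (chr15:76172163-76178469), which encodes plectin, a linker between cytoskeletal filaments. Its summit had 88 fragments, with a fold enrichment of 7.19 (95% Poisson interval 5.78 to 8.84). Rai1, a nuclear regulator of transcription, held 5902 bp (chr11:60184965-60190866) at 14.9-fold. Mbd6, with a methyl-CpG-binding domain, held 5595 bp (chr10:127282117-127287711) at 20.3-fold. Spen, a transcriptional corepressor, held 5319 bp (chr4:141471412-141476730) at 12.9-fold. Ahdc1, an AT-hook DNA-binding protein, held 5275 bp (chr4:133061134-133066408) at 18.2-fold. Kdm6b, a demethylase of histone H3 lysine 27, held 4991 bp (chr11:69403564-69408554) at 16.9-fold. Zfhx3, a zinc finger homeobox factor, held 4900 bp in the widest of its 3 wide peaks (chr8:108946157-108951056) at 11.7-fold. These 6 nuclear genes had from 65 to 97 fragments at the summit.

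The remaining 3 of the 10 differed in their surroundings. Rsph3b, a radial spoke gene of cilia, held 6273 bp (chr17:6931879-6938151) at 22.3-fold, but it has a near-identical copy, Rsph3a, and the reads of these copies cannot be assigned with certainty. Camk2b, a calcium/calmodulin-dependent kinase subunit, held 5665 bp (chr11:6005752-6011416), and Chd9, a chromodomain helicase, held 5409 bp (chr8:90886400-90891808). Both had deep backgrounds of 40.8 and 24.8 fragments, folds of only 4.69 and 5.86, and no other peak within 10 kb. The median background over all wide peaks was 4.26.

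Ranked by fold enrichment instead of width, the leading wide peaks were at other genes. Tmem158 stood at 37.6-fold (30.9 to 45.3) with 109 fragments at the summit and a background of 1.93. Cebpb, a transcription factor needed for decidualisation of the stroma, stood at 36.8-fold (27.4 to 48.4) over 1022 bp with 49 fragments. Rsph3a followed at 34.2-fold, uncertain for the reason given above. Maz, a zinc finger factor, stood at 28.02-fold, Zfp503 at 27.1-fold and Zfp703 at 26.2-fold. Ephb4, a receptor for ephrin-B ligands, and Arid1a, a subunit of the SWI/SNF chromatin remodeller, each stood at 26.1-fold. Their intervals overlap from Maz to Arid1a, so the order among these last 5 is not settled.

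Among wide peaks in exactly 1 protein-coding gene, 3 of the 5 lowest folds belonged to mitochondrially encoded genes. Iqsec1 had the least, at 2.02-fold (1.40 to 2.83), followed by mitochondrial CYTB at 2.29-fold, Larp1 at 2.42-fold, and mitochondrial ND4 and ND5 at 2.50-fold and 2.53-fold. The mitochondrial peaks were deep, with 259 fragments at the ND5 summit, 241 in ATP6 and 235 in ND4. Actb, encoding cytoplasmic actin, had 231 at 3.67-fold, and Col1a1, encoding a chain of type I collagen, had 226 at 5.02-fold. Among the 8 mitochondrially encoded genes with a peak, 5 held a wide one, and these peaks covered from 78.7% of ND5 to all of ATP6.

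Wide peaks were held by 865 of the 6367 protein-coding genes with any peak in the gene alone (13.6%). A single wide peak was held by 727 genes, 2 by 103 genes and 3 or more by 35 genes. In 131 genes the wide peak was the only peak. Where a gene had both kinds, a wide peak was its highest by fold in 391 of 726 genes (53.9%). Genes with a wide peak had a median of 4 peaks and a span of 23.6 kb, against 2 peaks and 27.5 kb in the genes with narrower peaks only. At the median, wide peaks covered 7.21% of the gene's span. They covered at least 50% of it in 62 genes and under 5% in 345. Compact genes were the most covered, among them Cldn3, a tight-junction gene, at 96.5%, Zfp579 at 95.3%, Isyna1, the inositol-phosphate synthase, at 92.7%, and Cited4 at 91.8%.

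Kmt2d, a methyltransferase of histone H3 lysine 4, held 8 among its 19 peaks. They measured 1023 to 4866 bp, summed to 17908 bp or 42.2% of its 42.4 kb span, and ran from 4.60-fold to 15.99-fold. The highest fold was at the most 5′ of them and the widest was near the middle of the gene. Hspg2, encoding perlecan of the basement membrane, held 7 of 1045 to 1469 bp among 52 peaks, with the first at 42.5% and the last at 98.97% of the span from its 5′ end. Fasn, the fatty acid synthase, held 6 that covered 41.1% of its 19.2 kb, up to 15.2-fold. Plec held 5, of which 1279 bp was the narrowest. Lama5, a laminin chain, held 5 shallower ones with 25 to 43 fragments at the summit.

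Zfp469, Prrc2a, Cic, Tnrc18 and Setd1b held 4 each. Prrc2a was the most covered of the 10, at 45.8% of 16.2 kb, and its 2370 bp peak had 212 fragments at the summit. Zfp469 held its 4 peaks within the last part of its span by coordinate, the widest at 4637 bp. Tnrc18 reached 21.7-fold and Setd1b, another lysine 4 methyltransferase, 17.3-fold. Cic, a transcriptional repressor, ran from 5.59-fold to 10.9-fold. Several neighbours among these peaks lay close together, and the smallest gap between any 2 peaks of the list was 118 bp. Over all wide peaks, the median gap to the nearest peak was 570 bp, against 1733 bp for narrower ones.

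**Figure D4:**
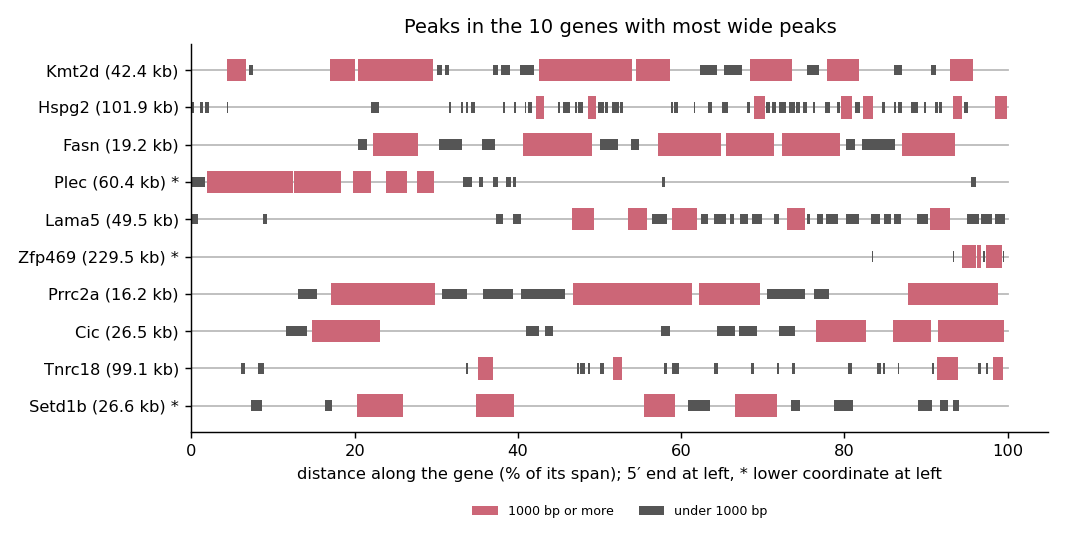
Peaks along the 10 genes with most wide peaks, as a percentage of the gene's span (horizontal axis) from the 5′ end or, for genes marked *, from the lower coordinate. Tall bars are peaks of 1000 bp or more and short bars are narrower peaks; Kmt2d carries 8 wide peaks along its span and Zfp469 has its 4 near the right end.

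Families of nuclear regulators recurred among the holders. The comparison throughout is 13.6%, the share over all genes with a peak. The lists overlap, and their genes are not replicates, so the shares are descriptions. A gene with more peaks has more chances to hold a wide one, and the shares by gene were not adjusted for this. Sox factors, which shape cell identity, held a wide peak in 6 of 9 genes with a peak (66.7%, 35.4 to 87.9%). Sox17 (2008 bp, 14.4-fold), Sox4 (1935 bp, 14.2-fold) and Sox12 (2368 bp, 14.5-fold) were nearly alike in fold, and Sox7 was the lowest at 4.65-fold. Jun and Fos factors, the AP-1 family and its relatives, held one in 6 of 14, including Jund at 19.5-fold with 121 fragments. Gata and Tbx factors held one in 3 of 6, and Fox factors in 6 of 17, including Foxl2 (2500 bp, 16.2-fold) and Foxo1 (1552 bp, 12.8-fold).

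Chromatin and coregulator genes contributed 55 wide peaks among 552, in 30 of 84 genes (35.7%, 26.3 to 46.4%). By shared name, a grouping made after the values were seen, 6 of 8 Kmt genes, 5 of 8 Arid genes and 4 of 5 Chd genes held one. Names were kept only where several members, and a large part of them, held one, so these shares are high by selection. Within the Kmt genes, Kmt2a, Kmt2b, Kmt2c, Kmt2d, Kmt2e and Kmt5c did and Kmt5a and Kmt5b had narrower peaks only. A zinc finger list, mainly Zfp and Zbtb genes, contributed 51 wide peaks among 417, in 43 of 139 genes (30.9%, 23.9 to 39.0%). It goes by name and not by function, and its holders include Sall1, Sall2, Zmiz1, Zmiz2 and Zfp36. Homeobox factors held them in 8 of 39 (20.5%, 10.8 to 35.5%), with Hoxd9, Zfhx2 and Zfhx3 among them. Klf and Sp factors held them in 4 of 17 (23.5%, 9.56 to 47.3%), all between 11.0-fold and 25.1-fold, the latter in Klf13. The intervals of the homeobox and of the Klf and Sp lists include the 13.6% over all genes. Nuclear receptors held them in 8 of 26 genes, with Nr2f6 at 15.4-fold and Nr2f2 at 15.8-fold.

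Signalling families gave a mixed count. Hedgehog genes held a wide peak in 4 of 8, among them the ligand Ihh and the transcription factors Gli1 and Gli2. Ptch1 and Smo, the receptor and the signal transducer, had narrower peaks only, of at most 723 and 434 bp. Wnt and Frizzled genes held one in 5 of 26. Of these, 4 were Frizzled receptors: Fzd1, Fzd2, Fzd5 and Fzd7, from 10.1-fold to 12.5-fold. Notch1, Notch2 and Notch3 held one each or more, at 8.47-fold to 12.5-fold in their widest peaks, and all 3 of those lay beyond 95% of the gene's span. BMP and Smad genes held one in 6 of 24, among them the ligand Bmp7 and its antagonist Nog. Ephrins and Eph receptors held one in only 1 of 14, Ephb4. By peaks, 5 of 61 were wide in the hedgehog list, 5 of 70 in the Wnt and Frizzled list and 6 of 84 in the BMP and Smad list. The Notch list had 4 of 74 and the ephrin list 1 of 62, beside 1059 of 19484 over all genes.

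Structural genes were set beside the median of all wide peaks, 8.15-fold. Collagens held a wide peak in 7 of 24 genes, 12 wide peaks among 221. The widest in Col1a1 measured 2983 bp at 3.95-fold and that of Col7a1 2204 bp at 3.89-fold. Laminins and basement membrane genes held 15 wide peaks among 248, in 4 of 15 genes, led by Hspg2 with 7 and Lama5 with 5. By peaks, collagens and this list were thus near the 1059 of 19484 over all genes. Smooth muscle contractile genes held one in 5 of 14. By peaks, 7 wide among 112, they too were near the 1059 of 19484. Synpo2 stood at 4.95-fold, Cnn1 at 4.62-fold and Tpm2 at 7.70-fold. Smtn held 3, at 5.02-fold, 5.65-fold and 12.6-fold. Beta-tubulins, a group added after the values were seen, held one in 5 of 6 genes. They were among the names kept for a high share, and ran from 3.69-fold in Tubb4b to 6.66-fold in Tubb6. Their coding sequences are much alike, so reads may be shared among them. Hspa1a and Hspa1b, inducible heat shock genes that are near-identical copies, held one each at 13.4-fold and 12.3-fold.

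Other large families held fewer wide peaks than the share over all genes. Cytosolic ribosomal protein genes, which are short and abundantly transcribed, held one in 1 of 53 (1.89%, 0.334 to 9.94%), namely Rpl10a. Histone genes, also added afterwards and by their current symbols, held one in 1 of 63, H2ax. Both families have short genes, with median spans of 3.17 and 0.5 kb. At a span of 0.5 kb, a peak of 1000 bp would have to run past the gene's ends. The histone count was thus bound to be low and says little about that family. Solute carriers held one in 11 of 117 (9.40%, 5.33 to 16.1%) and hnRNP and SR splicing genes in 3 of 36, including Srrm2 at 3104 bp. Basic helix-loop-helix factors held one in 2 of 26. G protein-coupled receptor genes, at 3 of 20, were close to the share over all genes. The heat shock list that replaced the planned one equalled it at 3 of 22. That list left out Hspg2 and some further genes of the planned list, which stood at 4 of 25.

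**Figure D5:**
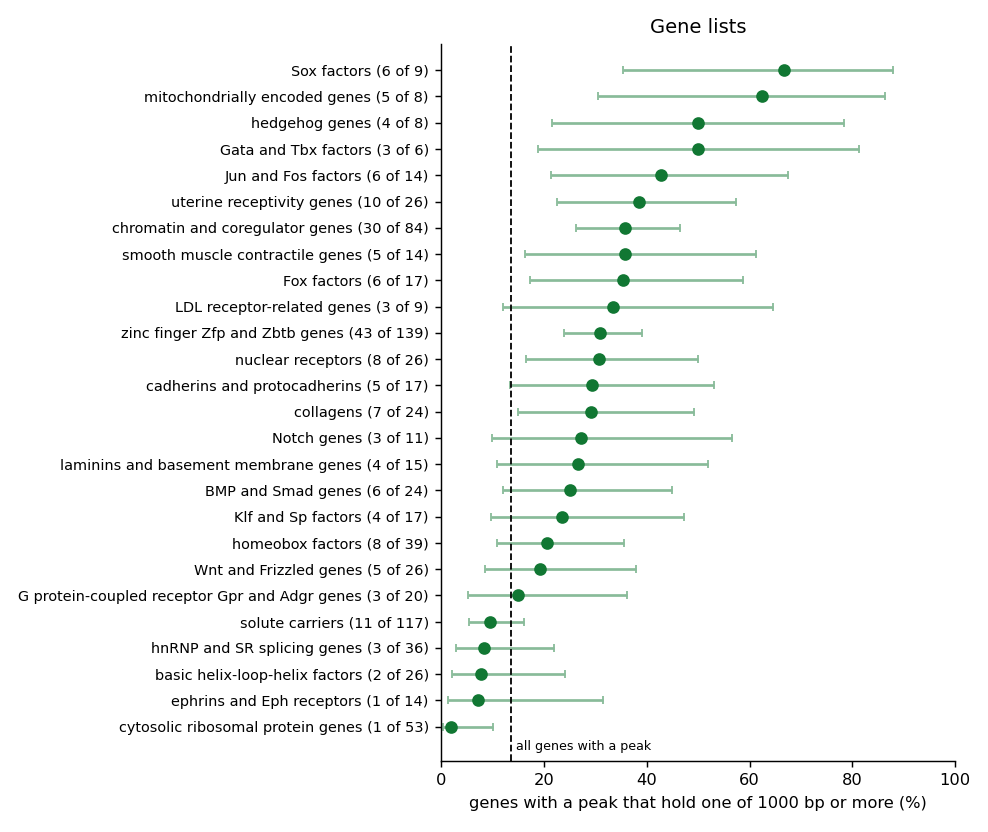
Percentage of genes with a peak that hold a wide peak (horizontal axis) for the lists set earlier that have at least 5 such genes, cell type markers and heat shock genes left out, with counts beside each name. Points are shares, bars 95% Wilson intervals and the dashed line 13.6%, the share over all genes with a peak; of the lists drawn, Sox factors are highest at 66.7% and cytosolic ribosomal protein genes lowest at 1.89%.

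On a list of 35 uterine receptivity genes, 26 had a peak and 10 of these held a wide one (38.5%, 22.4 to 57.5%). Over all protein-coding genes, 6367 of 21900 had a peak and 865 of these held a wide one. Among ligands and their effectors, Ihh held 2. The peak over its start (chr1:74950503-74951771) stood at 23.8-fold (17.1 to 32.3) with 39 fragments over a background of 0.683. The peak near its 3′ end (chr1:74945441-74946880) stood at 6.19-fold (4.36 to 8.54) with 35 fragments over a background of 4.81. Fragment numbers at the 2 summits were thus nearly equal, and the backgrounds differed. Gli1, an effector of hedgehog signalling, held 1911 bp at 7.48-fold, and Nr2f2, the stromal COUP-TFII downstream of Ihh, 1496 bp at 15.8-fold.

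Receptors and transcription factors made up most of the rest. Pgr, the progesterone receptor, held the widest of this list, 2045 bp (chr9:8900076-8902120) at 10.02-fold (8.34 to 11.9) with 123 fragments, and its summit lay at 3.55% of the gene from the 5′ end. Gata2 held 1640 bp at 11.97-fold and Sox17, an epithelial factor, 2008 bp at 14.4-fold as its only peak. Msx1, a homeobox factor, had 2 peaks and both were wide, at 12.1-fold and 13.6-fold. Hoxa10, needed in the stroma for implantation, held 1795 bp at 5.92-fold, and Foxa2, the factor of uterine glands, 1321 bp at 10.2-fold with only 19 fragments. Muc1, a mucin of the luminal surface, held 1254 bp at 18.2-fold. Just under the limit stood Klf5 (980 bp), Ncoa6 (974 bp), Errfi1 (924 bp) and Hand2 (813 bp). Esr1, the estrogen receptor, had 7 peaks of at most 770 bp.

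The tissue label was set against marker genes, since whole uterus mixes cell types. A peak was present in 9 of 10 epithelial, 10 of 10 stromal, 7 of 8 smooth muscle, 7 of 8 endothelial and 4 of 8 immune markers. Over all protein-coding genes, 6367 of 21900 had one. Wide peaks were held by 3 of those 9 epithelial markers, Cldn3, Foxa2 and Muc1. Stromal markers held one in 4 of 10, Col1a1, Hoxa10, Nr2f2 and Pdgfrb, smooth muscle markers in 2 of 7, Cnn1 and Smtn, and endothelial markers in 2 of 7, Sox7 and Sox18. No immune marker held one, 0 of 4, too few genes to set beside the 13.6% over all genes with a peak. In such bulk tissue, fewer cells of a type and less RNA per cell cannot be told apart.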

How the data were processed

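The values were those of 1 peak list in 10 columns for an ac4C immunoprecipitation and an input control library. Per the submitters' processing notes, HISAT2 2.2.1, MACS3 3.0.0a7 and the mm10 build were used; settings and filters were not given in the sources used here. For each peak the authors deposited a fold enrichment (a ratio at the summit), a −log10 p-value, a −log10 q-value, a score and the summit offset, and the largest deposited q-value was 0.0499. Whole fragment counts at the summit were recovered from the deposited fold and −log10 p with a pseudocount of 1, within 0.01%, for 21192 of 21192 peaks, a step that was tested on simulated data. Library totals were not used here.

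Summits were placed in gene spans of the RefSeq table for GRCm38.p6 (21900 protein-coding genes, 17492 of them with a strand from the promoter table), and the repeat was searched in 32817 distinct windows of that table on both strands. Intervals are 95% Wilson intervals for shares and exact Poisson intervals for folds, and cover counting error only; PCR copies could not be told from separate molecules. Computation used Python 3.11.15, pandas 2.3.3 and SciPy 1.17.1.

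The members, gene lists and rules were chosen with earlier results of these data known. Genes named were the 10 widest peaks, at most 10 genes with 3 or more wide peaks, the 8 greatest and 5 least folds, the 5 with most fragments, up to 4 genes of widest peak per list, receptivity and marker genes with a wide peak, and 5 peaks on either side of the limit. Others, such as genes with a covered start or end, narrower-peak genes and fold leaders within lists, were named after their values were seen. The planned list of histone genes matched 0 symbols, and the planned heat shock list took in Hspg2; both were replaced afterwards.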

Additional observations from a re-analysis of the deposited data

How the results depend on the processing

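The limit of width sets the counts by construction. With 800 bp there were 1856 wide peaks in 1304 genes, 20.5% of genes with a peak, and with 1500 bp there were 402 in 327 genes, 5.14%. The median fold was then 7.76 and 9.20, the median summit fragments 40 and 56, and the median span covered 5.72% and 8.96%. With 800 bp, 94.3% of summits lay in protein-coding genes. Only peaks with a −log10 q of at least 10 gave a median fold of 8.55 and 21.7% of genes. Only peaks at or above the median fold gave 9.41, 16.8% of genes and 95.4% of summits in protein-coding genes. Counting only summits in 1 gene of any kind gave 97.7% in protein-coding genes. The other 46 of 65 recomputed values moved by less than their interval or stayed within 1.5 times, and none changed direction. The summit's median offset and the share in the last of 5 parts of the gene were among them. So was the share of starts with the repeat, under 3 alternatives chosen after seeing the data. Of the 26 planned gene lists with at least 3 holders of a wide peak, the heat shock list with Hspg2 included, 24 lay above the share over all genes. From 21 to 24 did under the alternatives, and needing 3 holders favours lists with a high share.

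No paired analysis was possible because there was 1 library in each group and 1 peak list. Summit fragments ranged from 8 to 390, and of the 2348 peaks with fewer than 10, 1 was wide; the part of depth in this was not tested.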

Other observations

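Of the 83 wide peaks outside protein-coding genes, 55 were in none of the table's genes, 4.72% of wide peaks against 2.50% of narrower ones. Their median fold was 6.05 and their median background 8.75 fragments, against 8.32 and 3.94 in the 1059 wide peaks within 1 protein-coding gene. Runs were frequent among them: 32 of the 55 (58.2%, 45.0 to 70.3%) had another wide peak within 5 kb, as did 248 of the 1059 (23.4%, 21.0 to 26.1%). Runs of 3 wide peaks stood at chr4:108146823-108152450, with folds of 3.63 to 10.6, at chr8:119889716-119896825, with 132 to 175 fragments at the summits, and at chrX:15475351-15481941. A pair at chr7:30689932-30696831 held widths of 2457 and 3879 bp at 9.63-fold and 9.31-fold. A single peak of 5454 bp at chr4:133096066-133101519 stood at 5.78-fold over a background of 24.2 fragments, 18950 bp from the nearest peak. It resembled the peaks of Camk2b and Chd9 in width, fold and isolation: these 3 were the only ones of 9 peaks of at least 5000 bp with no other peak within 10 kb. The deepest wide peak of the list, with 390 fragments at 4.37-fold, lay at chr17:39842987-39846509 in none of the table's genes. A gene missing from that table would not be seen here.

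Among long non-coding RNA genes, the abundant nuclear RNAs had low folds: Malat1 held 2 wide peaks at 2.98-fold and 2.35-fold, and Neat1 held 1 at 2.83-fold. Carmn, a smooth muscle RNA, held 1 at 3.74-fold. The immunoglobulin constant gene Igha held 1521 bp at 11.1-fold with 115 fragments. Predicted protein-coding genes named by a Gm number held a wide peak in 15 of 49 with a peak (30.6%). Of 1005 miRNA hairpins in the table, 79 lay wholly in a peak and 13 of these in a wide one (16.5%). Wide peaks made up 19.8% of the length under all peaks, so this count does not set hairpins apart. Among the 13 were Mir6945 in the 3288 bp peak of Pdlim7 and Mir5125 in a 2368 bp peak of Srrm2. These hairpins lie in host genes, and a peak over one does not show that the hairpin itself was pulled down.

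Some small families, grouped by name after the values were seen, held a wide peak in all or most members with a peak. They were picked for that high share, so the share itself is no result. The folds and widths given are those of each gene's widest peak. Shank1, Shank2 and Shank3, scaffold genes, held them in 3 of 3, at 11.7-fold to 16.04-fold and 2368 to 2696 bp, and Shank3 reached 20.9-fold in another wide peak. Tshz1, Tshz2 and Tshz3, zinc finger factors, held them in 3 of 3, at 6.18-fold to 7.37-fold. Tensins, which tie actin to adhesions, held them in 3 of 4, from 4.02-fold in Tns3 to 7.72-fold in Tns2, and Tns1 reached 15.0-fold in its other wide peak. Nfatc1, Nfatc2 and Nfatc4, calcium-regulated transcription factors, held them at 5.50-fold to 11.996-fold, and Nfatc1 reached 16.4-fold in its other wide peak; Nfatc3 had narrower peaks only, so the count was 3 of 4. From the lists set earlier, both insulin receptor substrates with a peak, Irs1 and Irs2, held one. Cadherins and protocadherins held them in 5 of 17 genes, 7 wide among 106 peaks, with Celsr2 at 19.0-fold and Pcdh7 at 3.92-fold. LDL receptor-related genes held them in 3 of 9, 4 wide among 90 peaks, with Lrp3 at 13.5-fold and Lrp1 at 4.17-fold.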
